A study of Mus musculus with 5 samples.

Results

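The Mef2 transcription factors were followed through single-nucleus RNA sequencing of the mouse paraventricular hypothalamus (PVH), the region that holds the brain's main groups of oxytocin and vasopressin neurons. The members were the 3 genes Mef2a (ENSMUSG00000030557), Mef2c (ENSMUSG00000005583) and Mef2d (ENSMUSG00000001419), found by symbol among the 31054 genes of the deposited count matrices, and all 3 were detected in every library. They were proposed with earlier results of these data known, among them the Mef2c level in oxytocin-type nuclei of the animals given CNO. The values below are therefore a description and carry no test.

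MEF2 proteins are MADS-box transcription factors that bind an A/T-rich DNA element as dimers of the same or of different members. Class IIa histone deacetylases hold them in a repressed state, and calcium signals through calcineurin and calcium/calmodulin-dependent kinases release that repression. In neurons they take part in activity-dependent transcription and in setting synapse number, in microglia MEF2 family members belong to the factors that shape the enhancers of the lineage, and MEF2C is needed in the development of the heart and vessels.

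There were 5 libraries from male mice on a C57BL6 background, each made from nuclei of 2 to 4 pooled animals. The saline and VPA libraries came from 5-week-old OT-Cre; Rosa26tm9(CAG-tdTomato)Hze mice, in which Cre in oxytocin cells switches on a red fluorescent protein, after their dams received saline (10 mL/kg) or sodium valproate (500 mg/kg), an anticonvulsant that also inhibits histone deacetylases, on gestation day 12.5. The other 3 libraries came from OT-Cre; Rosa26dreaddm3 mice of 5 to 7 weeks (stop-hM3), in which Cre permits the Gq-coupled designer receptor hM3 in oxytocin cells. All of those had prenatal valproate, and the protocol mentions an AAV injected in the PVH and supraoptic region of such mice. Which construct it carried, and whether all 3 libraries came from injected animals, is not given in the labels used here. The hM3 control library had saline on postnatal day 2, and CNO replicates 1 and 2 had clozapine-N-oxide, the ligand of the receptor, on that day. No hM3 library lacked prenatal valproate, and the VPA library cannot stand in for the hM3 control, since genotype and handling differ.

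Between 4440 and 10904 nuclei were deposited per library, with 52506958 to 76243280 unique molecular identifiers (UMIs, each counting 1 captured transcript molecule). The median per nucleus was 11068 UMIs in saline, 5451 in VPA and 11119 in the hM3 control. CNO replicates 1 and 2 had medians of 11913 and 3722.5 UMIs, so replicate 2 stood apart by its low depth. Library pairs shared 4 to 23 cell barcodes. Although the labels say male, 20 of 10904 VPA nuclei held at least 3 UMIs of Xist, a transcript of female cells, against 0 in the other libraries. Of those 20, 0 were oxytocin-type nuclei and 1 was a microglial one. Levels are given as CPM, the UMIs of a gene per 1000000 UMIs of the same nuclei in a library. They are not scaled by gene length, so levels are compared between cells and not between genes.

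Nuclei were sorted into classes by clustering without the Mef2 genes, Oxt and Avp. The oxytocin-type class, called OT-like, held the neurons of 2 sub-clusters with Oxt far above the neuronal mean of 37.3 CPM. It counted 150, 199, 96, 26 and 78 nuclei in saline, VPA, the hM3 control and CNO replicates 1 and 2, and its Oxt level was 620, 560, 463, 430 and 794 CPM in the same order. Microglia counted 84, 136, 94, 23 and 31 nuclei, and all 10 microglial markers were detected in them in every library.

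Mef2a lies on chromosome 7 at 67231163-67372858 on the minus strand and spans 141696 bp (GRCm38, GENCODE M21). Mef2c lies on chromosome 13 at 83504034-83667080 on the plus strand, spans 163047 bp and has 27 distinct transcript starts among its 31 annotated transcripts. Mef2d, on chromosome 3 at 88142372-88172086 on the plus strand, is the compact member with 29715 bp. The 150 bases before the first annotated start of each gene are shown to contrast their CG dinucleotides, written in capitals (RefSeq, GRCm38.p6, 5′ to 3′ on the strand of the gene, at chr7:67372859-67373008, chr13:83503884-83504033 and chr3:88142222-88142371).
Mef2a: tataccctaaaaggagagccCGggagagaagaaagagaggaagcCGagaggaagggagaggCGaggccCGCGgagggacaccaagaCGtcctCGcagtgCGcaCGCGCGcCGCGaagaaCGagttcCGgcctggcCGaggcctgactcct
Mef2c: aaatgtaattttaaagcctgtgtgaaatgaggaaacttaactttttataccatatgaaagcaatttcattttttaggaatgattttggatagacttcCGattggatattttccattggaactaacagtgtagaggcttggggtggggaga
Mef2d: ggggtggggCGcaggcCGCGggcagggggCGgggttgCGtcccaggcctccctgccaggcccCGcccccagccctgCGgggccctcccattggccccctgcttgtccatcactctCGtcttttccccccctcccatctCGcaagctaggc
In the wider windows of 300 bases, from 250 before to 50 after the start, Mef2a held 27 CG dinucleotides and Mef2d 24, against a median of 7 over all windows, and 84.5% and 80.0% of windows held fewer. The windows of the 3 Mef2c starts in the table held 1, 10 and 4. Which of the starts were used in these nuclei was not measured.

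The core of the MEF2 element, TAAAAATA searched on both strands, was present in the Mef2a window and in 893 of 32851 windows overall (2.72%). It is shown in capitals within chr7:67372841-67372870 on the minus strand, where it runs across the annotated start, with 1 of its bases before it.
Mef2a start: ggcctgactccTAAAAATAgccccggtgtg
The element GAGGAAGT of the microglial factor PU.1 (3.20% of windows) and the cAMP response element TGACGTCA (1.79%) were in none of the 5 member windows, which says only that these letters are not in those bases.

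Mef2a was highest in microglia in every library. Its microglial level was 3106 CPM in saline, 2947 in VPA, 2183 in the hM3 control and 1458 and 1775 in CNO replicates 1 and 2 (mean 2294 ± 719, SD over the 5 libraries of all treatments). In neurons as a whole it was 309, 260, 249, 257 and 280 CPM. The 2 sets did not overlap, and the microglial level was 8.15 times the neuronal level on average (5.67 to 11.3 over the libraries, higher in 5 of 5). On the log2 scale this ratio was 3.03, and it was 1.66 with coarser clusters (resolution 0.5). After thinning each nucleus to 1000 UMIs, which removes the difference in depth, 56.5% to 92.9% of microglia and 20.7% to 24.5% of neurons still held a Mef2a UMI.

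Below microglia came neurons with the thalamic factors Tcf7l2 and Lef1, called thalamus-like, and the vessel classes. Thalamus-like nuclei had 551, 486, 465, 441 and 437 CPM of Mef2a, 2.13 times the GABAergic-like neurons (1.99 to 2.33, higher in 5 of 5). Endothelial nuclei had 451, 459, 419, 609 and 384 CPM on 20 to 170 UMIs, and mural nuclei, which wrap the vessels, 542, 336, 250.5, 232 and 305 CPM on 4 to 28 UMIs. The ranges of thalamus-like, endothelial, fibroblast and mural nuclei overlapped from one to the next, so their order does not hold beyond the spread between libraries.

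Mef2a differed less among the remaining classes. It was 261, 244, 212, 252 and 230 CPM in OT-like nuclei, 246, 232, 235, 234 and 209.1 in the neurons with the PVH factor Sim1 (Sim1-like), 237, 229, 218, 214 and 219 in GABAergic-like neurons and 227, 227, 228, 216 and 206 in oligodendrocytes. Astrocytes, at 188, 180, 171, 176 and 181 CPM, lay below oligodendrocyte precursors without overlap. Committed precursors (132 to 181 CPM) and ependymal nuclei (65.1 to 226 CPM) had the lowest means, 155 and 139 CPM. OT-like nuclei were below the other neurons in 5 of 5 libraries, by -0.18 on the log2 scale on average.

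Mef2c showed the steepest contrast between classes of the 3 genes. Microglia held 1976, 2368, 1545, 1540 and 1349 CPM (mean 1755 ± 412, SD over the 5 libraries) against 134, 171, 112, 125 and 171 CPM in neurons. That is 12.2 times the neuronal level (7.91 to 14.7, higher in 5 of 5), or 3.61 on the log2 scale, and 2.22 with the coarser clusters. Endothelial nuclei had 345, 175, 311, 426 and 379 CPM on 14 to 168 UMIs, and mural nuclei 381, 300, 295, 290 and 593 CPM on 5 to 33 UMIs. Both vessel classes lay between microglia and neurons, but in VPA endothelial nuclei were level with neurons (log2 ratio 0.03, -0.70 to 0.68). The mural range did not reach the microglial one.

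Among neurons Mef2c was 149, 188, 120, 123 and 175 CPM in GABAergic-like, 120, 136, 134, 173 and 168 in thalamus-like, 106, 140, 93.0, 113 and 153 in Sim1-like and 112, 135, 70.5, 86.0 and 195 in OT-like nuclei. These ranges overlapped throughout. Within libraries, GABAergic-like nuclei were above Sim1-like ones in 5 of 5 (1.25 times on average, 1.10 to 1.40). Thalamus-like nuclei were above GABAergic-like ones in 2 of 5, and OT-like above Sim1-like ones in 2 of 5. Oligodendrocytes, with 16.7, 13.9, 5.48, 14.1 and 25.9 CPM, were at the bottom, followed upward by committed precursors, fibroblasts and astrocytes (45.1, 59.3, 34.6, 61.2 and 69.7 CPM). In thinned nuclei a Mef2c UMI was found in 79.8% to 87.5% of microglia, 9.84% to 15.8% of neurons and 0.274% to 1.83% of oligodendrocytes, the class that serves here as the reference for RNA free in the droplets.

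Mef2d differed little between classes. It was 53.2, 53.5, 62.7, 66 and 49.1 CPM in neurons, 52.3, 59.6, 63.9, 51.6 and 38.5 in OT-like nuclei and 79.0, 102, 101, 106 and 73.3 in microglia, the last on 5 to 32 UMIs. Microglia were above neurons in 5 of 5 libraries, 1.62 times on average (1.49 to 1.91), but in the order of all classes each range overlapped its neighbour's. On the log2 scale the ratio was 0.69, and it lay between 0.17 and 0.72 over 4 alternative settings.

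**Figure D1:**
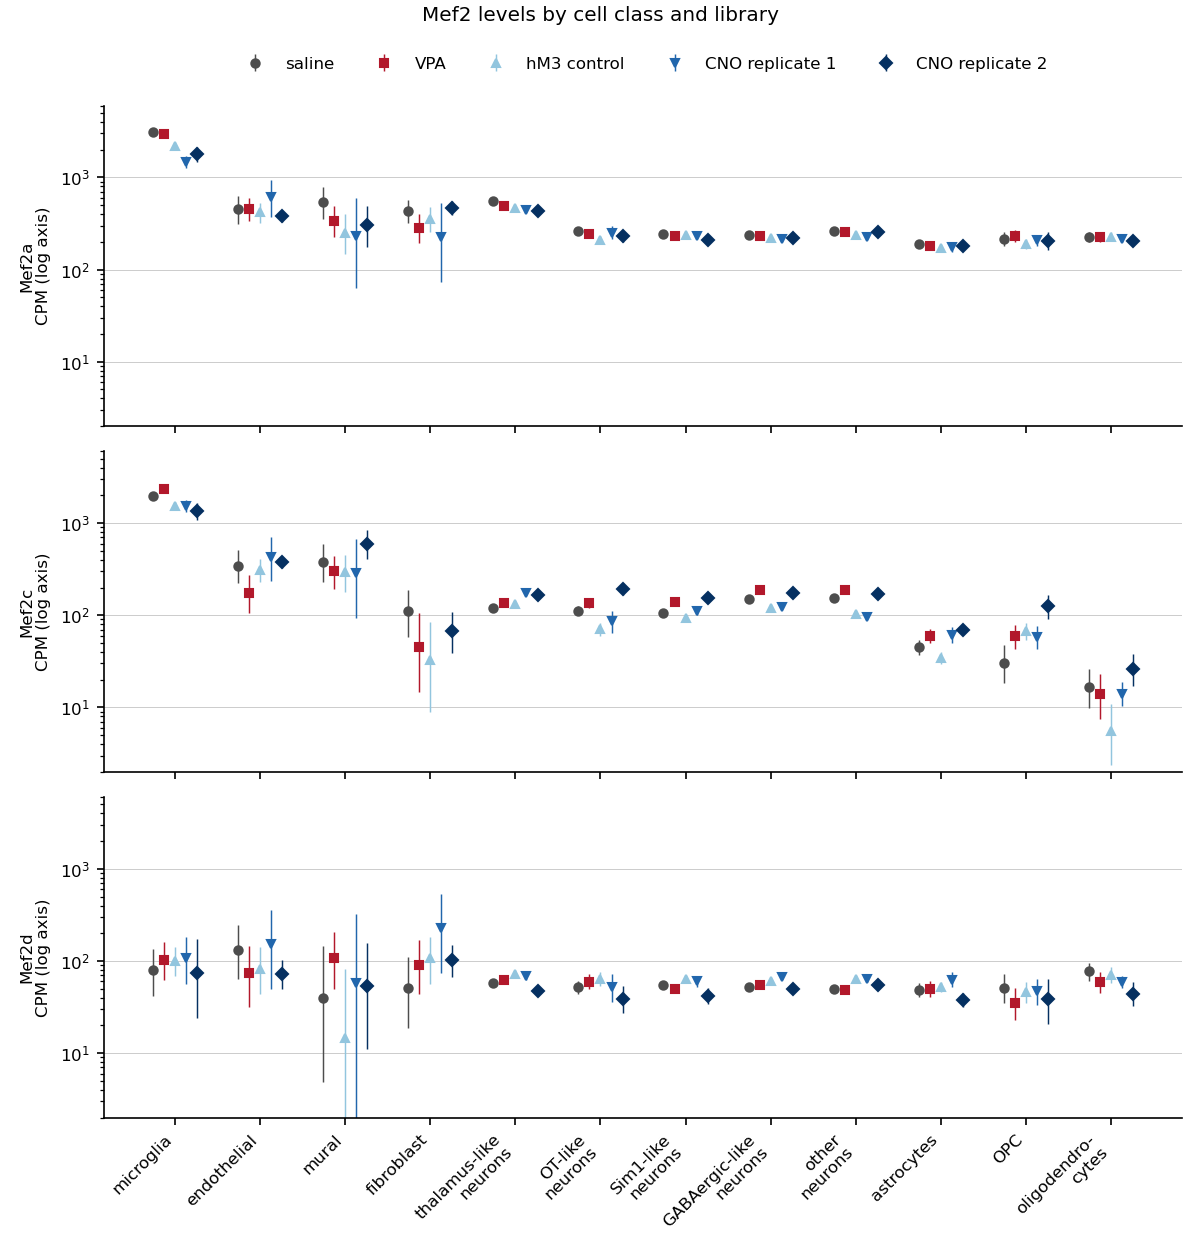
Level of Mef2a, Mef2c and Mef2d (rows, CPM on a log axis) in each cell class (columns), with 1 point per library and exact 95% Poisson intervals that cover counting error only; intervals that reach below the axis are cut there. Microglia stand above all other classes for Mef2a (1458 to 3106 CPM) and Mef2c (1349 to 2368 CPM), while Mef2d points lie in 1 band.

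Genes with the most similar pattern over 15 cell classes were found among 12322 genes by Pearson's r of log levels, as a description of points that share libraries and depth. For Mef2a they were Syk (r = 0.949), a kinase of immune receptors, Lysmd4 (0.946), Scoc, Actr2 and Nfam1. For Mef2c they were Lyn (0.923), a Src-family kinase of immune cells, Camk1 (0.921), a calcium/calmodulin-dependent kinase, Trim14, Tnfrsf11a and Zdhhc18. Of these 10 genes 9 were highest in microglia, and Zdhhc18 was highest in endothelial nuclei. Mef2d was most like Anxa4 (0.890). Mef2a and Mef2c correlated with each other at 0.759, Mef2a and Mef2d at 0.413 and Mef2c and Mef2d at 0.256.

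Lysmd4 needs care, because it lies on the opposite strand of the same locus (chromosome 7 at 67222544-67307330, plus strand) and overlaps Mef2a over 76168 bp, 53.8% of the gene. The strand setting of the counting is not given in the sources used here. Whether UMIs of the 2 genes over the shared stretch were counted apart is therefore not known here. Lysmd4 was counted at 748, 735, 231, 278 and 689 CPM in microglia and at 107, 117, 66.9, 78.1 and 146 CPM in neurons. An antisense gene, 1700113A16Rik, overlaps Mef2d over 531 bp only.

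OT-like nuclei fell into 2 sub-clusters that differed in Mef2c. The Oxt-richest, which also expressed Calb1 and Kcnmb4, had 1018, 849, 632, 583 and 1057 CPM of Oxt, and the Reln-rich, led by the estrogen receptor Esr2, with the mural marker Abcc9 also among its top genes and 796 CPM of Reln over all libraries, had 373, 222, 176, 184 and 440. Mef2c was 51.0, 86.4, 59.2, 63.4 and 117 CPM in the Oxt-richest and 150, 193, 89.8, 122 and 299 CPM in the Reln-rich sub-cluster. The Reln-rich nuclei were higher in 5 of 5 libraries, 2.18 times on average (1.52 to 2.94). These counts rest on 25 to 89 Mef2c UMIs in the Oxt-richest and 30 to 265 in the Reln-rich nuclei.

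Mef2a had the same order with a smaller difference. It was 237, 230, 192, 236 and 190 CPM in the Oxt-richest and 275, 261, 244, 278 and 284 CPM in the Reln-rich nuclei, 1.24 times higher (1.13 to 1.5, 5 of 5). Mef2d had the opposite order in 4 of 5 libraries, with 68.2, 75.7, 74.0, 58.3 and 33.5 CPM in the Oxt-richest and 42.4, 40.8, 46.7, 40.8 and 45.2 CPM in the Reln-rich nuclei. The exception was CNO replicate 2, on 18 UMIs in each. The Reln-rich share of OT-like nuclei was 58.7% in saline, 46.7% in VPA, 39.6% in the hM3 control and 38.5% and 50% in CNO replicates 1 and 2, so a pooled OT-like Mef2c level also carries that makeup.

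**Figure D2:**
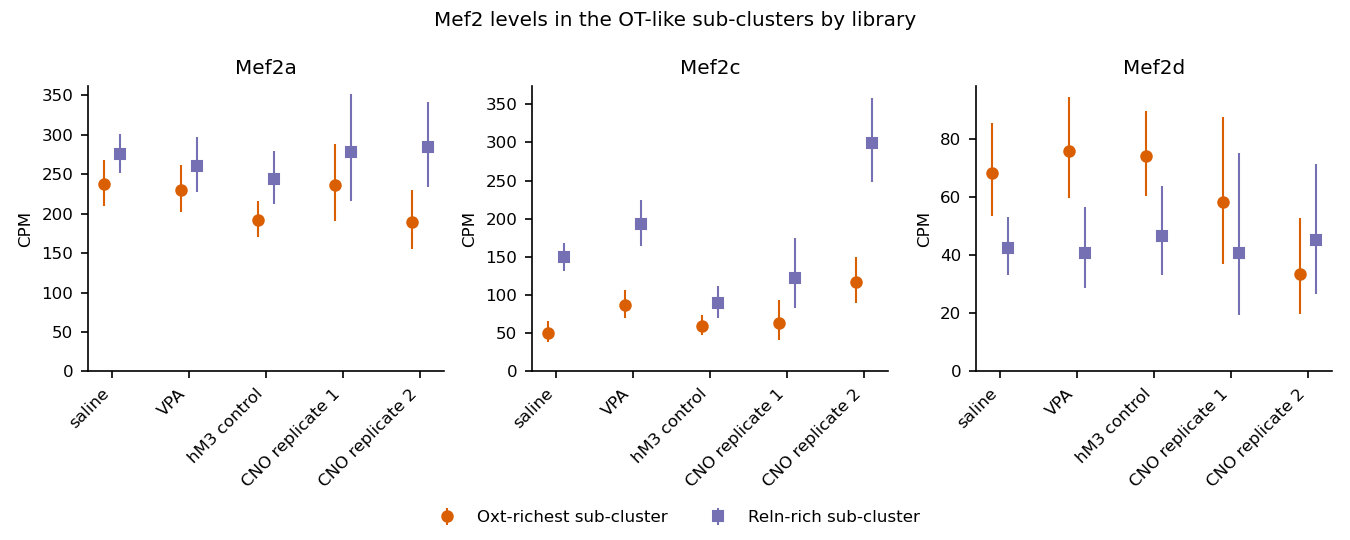
Level of each Mef2 gene (CPM) in the Oxt-richest and the Reln-rich OT-like sub-clusters in each of the 5 libraries; points are summed nuclei and bars exact 95% Poisson intervals for counting error. Mef2c is higher in Reln-rich nuclei in all 5 libraries and reaches 299 CPM in CNO replicate 2, against 117 CPM in the Oxt-richest nuclei of that library.

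Over the 48 neuron sub-clusters with at least 50 nuclei, the 3 genes varied to very different degrees. Mef2d spanned 43.1 to 76.8 CPM (1.78-fold), and its lowest level was that of the Reln-rich OT-like nuclei. Mef2a spanned 170 to 559 CPM (3.30-fold, median 233), with the thalamus-like sub-clusters led by Adgrg6 (559 CPM) and Gm19303 (486 CPM) at the top. Mef2c spanned 28.2 to 865 CPM (30.6-fold, median 132). Across these sub-clusters Mef2a and Mef2c were unrelated (r = -0.01), as were Mef2c and Mef2d (r = 0.01).

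The highest Mef2c level belonged to 62 nuclei led by Pdzrn3 and carrying Slc17a7, a vesicular glutamate transporter typical of cortex and hippocampus. It was 875 CPM in saline and 1182 CPM in VPA, the libraries with 21 and 24 of those nuclei, and the other libraries held 1 to 9. Mef2a was lowest of all in the same sub-cluster (170 CPM). Of its 24 VPA nuclei, 10 held at least 3 Xist UMIs, and summed astrocyte markers stood at 581 CPM in it. The next sub-cluster, GABAergic-like and led by Gm45194, had 286, 259, 218, 248 and 404 CPM of Mef2c in the 5 libraries.

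At the other end, a smaller group of 36 nuclei led by the dopamine transporter Slc6a3, all in CNO replicate 2, had 6.92 CPM of Mef2c and 282 CPM of Mef2a. The Oxt-richest OT-like nuclei (70.8 CPM over all libraries) and the Avp-led Sim1-like nuclei (81.8 CPM) were both in the lower part of the Mef2c range.

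**Figure D3:**
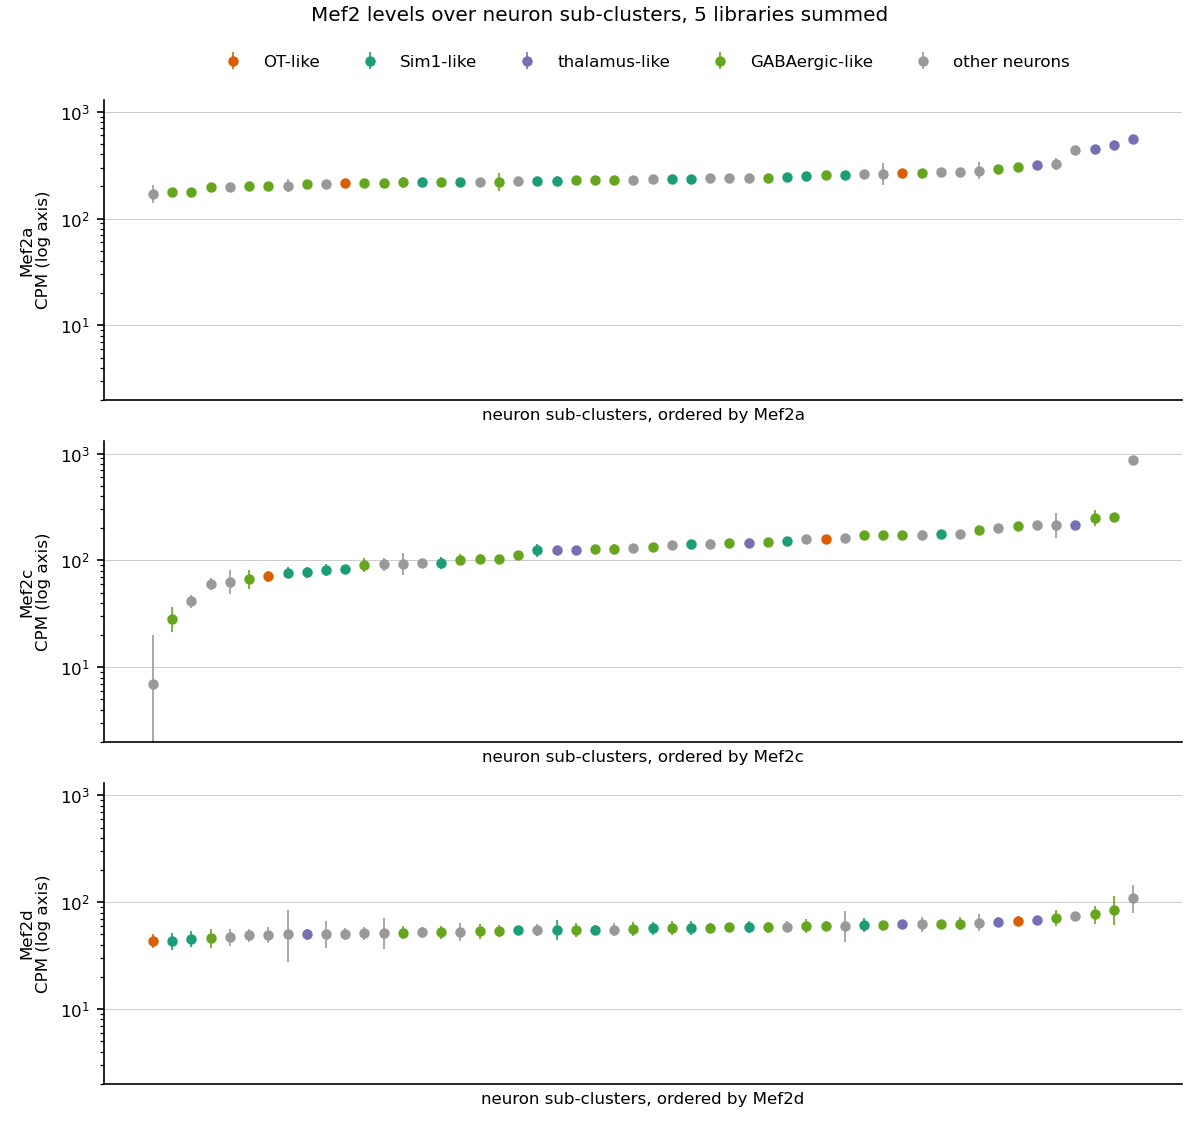
Level of each Mef2 gene (CPM on a log axis) in 52 neuron sub-clusters ordered by that gene, with the 5 libraries summed; colours give the neuron type and bars exact 95% Poisson intervals, cut at the axis for the lowest Mef2c point. The Mef2d points form an almost flat row, the top Mef2a points are thalamus-like, and Mef2c runs from 6.92 to 865 CPM with the 2 OT-like points at 70.8 and 160 CPM.

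Over the 48 sub-clusters, a comparison added after the first, the gene most like Mef2a was again Lysmd4 (r = 0.894), its overlapping neighbour. Mef2c was most like Xrcc1 (0.614) and C130071C03Rik (0.591), a long noncoding RNA gene that starts 54300 bp downstream of Mef2c on the same strand. Mef2d was most like Dpp7 (0.577).

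Prenatal valproate was examined by the VPA against the saline library, 1 library each, so no p-value can be given. Intervals cover counting error only. A gene was called where the log2 ratio of CPM was at least 0.5 in size, among genes with a mean of at least 20 CPM and at least 20 UMIs. In OT-like nuclei Mef2c was 112 CPM in saline and 135 in VPA, a log2 ratio of 0.28 (95% counting interval 0.03 to 0.52). Mef2a was 261 and 244 CPM (-0.09, -0.26 to 0.07) and Mef2d 52.3 and 59.6 CPM (0.19, -0.17 to 0.55). Of the 3 genes 0 were called, where 8.18% of the 6562 genes tested were.

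Mef2c was higher in the VPA library in most neurons, by less than the fold used for calling. The log2 ratio was 0.35 (0.30 to 0.39) in all neurons, 0.34 in GABAergic-like, 0.40 in Sim1-like and 0.18 in thalamus-like nuclei, and it was above 0 in 31 of 40 sub-clusters (median 0.36). In all neurons 0 of the 3 members were called, with a background of 3%. The background was 2.47% in GABAergic-like, 3.47% in Sim1-like and 7.85% in thalamus-like nuclei, again with 0 of 3 called. With nuclei of 3000 to 12000 UMIs only, where the 2 libraries overlap in depth, the ratio was 0.22 in neurons and 0.04 in OT-like nuclei.

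Within OT-like nuclei the VPA library had more Mef2c in both sub-clusters. In the Oxt-richest it was 51.0 CPM in saline and 86.4 in VPA (log2 ratio 0.76, 0.26 to 1.27), which was called, with 15.3% of genes called and 8.52% called higher. In the Reln-rich it was 150 and 193 CPM (0.36, 0.08 to 0.65), not called, with 14.6% of genes called. The sub-cluster values were not separated by depth. Over both sub-clusters, OT-like nuclei of 6000 to 12000 UMIs had 142 CPM in saline (36 UMIs) and 123 in VPA (122 UMIs), those of 12000 to 24000 UMIs had 109 and 126 CPM, and 27 VPA nuclei of 3000 to 6000 UMIs, a bin with fewer than 20 saline nuclei, had 305 CPM on 40 UMIs. The pooled OT-like ratio of 0.28 was smaller than either, while the Reln-rich share was 58.7% in saline and 46.7% in VPA.

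Mef2a was lower in VPA neurons as a whole (-0.25, -0.28 to -0.21) and less so within types. Its log2 ratio was -0.18 in thalamus-like, -0.08 in Sim1-like, -0.05 in GABAergic-like and -0.09 in OT-like nuclei. Thalamus-like nuclei, the neurons highest in Mef2a, made up 561 of 3726 neurons in saline and 547 of 7374 in VPA. It was below 0 in 30 of 40 sub-clusters (median -0.08). The ratio in all neurons was -0.05 with each sub-cluster weighted equally, -0.01 in nuclei of 3000 to 12000 UMIs and -0.33 with median-ratio scaling. Mef2d was level in neurons (0.01, -0.07 to 0.08).

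Microglia had 3106 CPM of Mef2a in saline and 2947 in VPA (log2 ratio -0.08, -0.25 to 0.10), and 1976 and 2368 CPM of Mef2c (0.26, 0.05 to 0.47). Of the 3 genes 0 were called, where 32.5% of the genes tested in microglia were. Summed neuron markers in these nuclei were 1641 CPM in saline and 2668 in VPA, and their part in the result was not tested.

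In the remaining classes calls were frequent among all genes. Endothelial Mef2c was 345 CPM in saline and 175 in VPA (-0.98, -1.92 to -0.07) on 26 and 19 UMIs, and was called, with 48% of genes called. Mural Mef2a was 542 and 336 CPM (-0.69, -1.50 to 0.13) on 27 and 28 UMIs, with 55.2% called. In oligodendrocyte precursors, where 22.3% were called, Mef2c was 30.4 and 59.5 CPM (0.97, 0.17 to 1.82) and Mef2d 51.2 and 34.9 CPM (-0.55, -1.35 to 0.23).

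**Figure D4:**
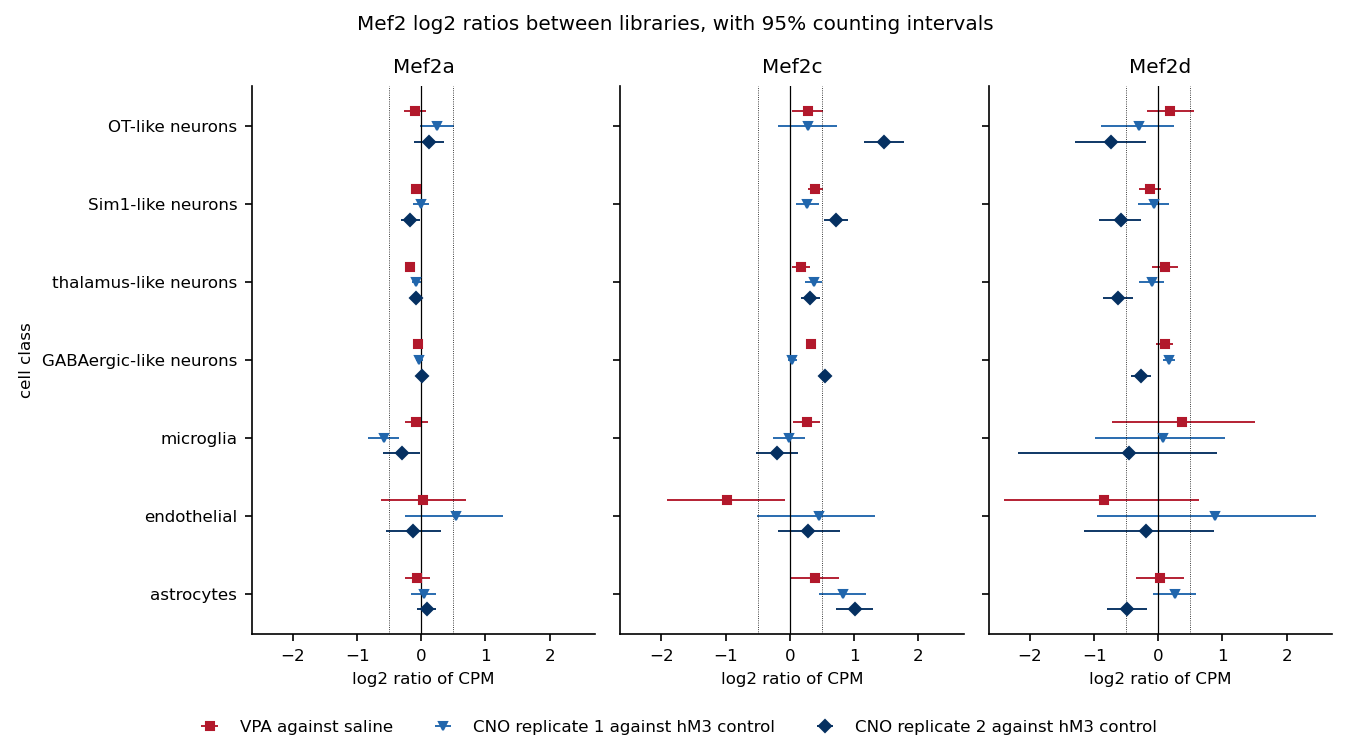
Log2 ratio of CPM for each Mef2 gene (panels) and cell class (rows) in VPA against saline and in each CNO library against the hM3 control; bars are 95% counting intervals and dotted lines the fold of 0.5 used for calling. For Mef2c the OT-like point of CNO replicate 2 (1.46) lies apart from that of CNO replicate 1 (0.29), and for Mef2d the neuron points of CNO replicate 2 lie left of 0.

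Postnatal CNO was examined by the 2 CNO libraries against the 1 hM3 control library. A gene was called where both CNO libraries passed the fold in the same direction. In OT-like nuclei Mef2c was 70.5 CPM in the hM3 control (96 nuclei, 159 UMIs), 86.0 CPM with CNO replicate 1 (26 nuclei, 55 UMIs) and 195 CPM with CNO replicate 2 (78 nuclei, 182 UMIs). The log2 ratios were 0.29 (-0.18 to 0.74) and 1.46 (1.15 to 1.78). Replicate 2 exceeded replicate 1 by 1.18 (0.74 to 1.64), a wider gap than that between replicate 1 and the control. The rule that chose the members used this contrast in an earlier grouping of the nuclei. In the present grouping 0 of the 3 members were called, with a background of 4.75% of 6923 genes, and replicate 1 fell short.

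The difference between the CNO libraries was present in both OT-like sub-clusters. In the Reln-rich nuclei Mef2c was 89.8, 122 and 299 CPM in the control and CNO replicates 1 and 2 (log2 ratios 0.45 and 1.74), and in the Oxt-richest nuclei 59.2, 63.4 and 117 CPM (0.10 and 0.99). Of the 3 members 0 were called in either, with backgrounds of 11.6% and 6.82%. The CNO replicate 1 value of the Reln-rich nuclei rests on 10 nuclei and 30 UMIs.

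Replicate 2 was also the higher CNO library for Mef2c in other neurons. All neurons had 112, 125 and 171 CPM in the control and CNO replicates 1 and 2 (0.15 and 0.60), Sim1-like 93.0, 113 and 153 CPM (0.27 and 0.72) and GABAergic-like 120, 123 and 175 CPM (0.04 and 0.55). Thalamus-like nuclei were at 134, 173 and 168 CPM (0.37 and 0.32). Their makeup differed, since the sub-cluster led by Abhd12b, the thalamus-like one highest in Mef2c (214 CPM over all libraries), gave 9 of 231, 85 of 304 and 143 of 429 of them in the same order. CNO replicate 2 was above the control in 25 of 28 sub-clusters and CNO replicate 1 in 17 of 30. Members called were 0 of 3 in neurons as a whole (background 1.9%), in Sim1-like (2.14%), in GABAergic-like (1.46%) and in thalamus-like nuclei (5.86%).

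Depth was compared within bins of UMIs per nucleus, since the median neuron held 15671 UMIs in the control and 16877 and 8655 in CNO replicates 1 and 2, and 13266 in saline and 6172.5 in VPA. Among neurons of 6000 to 12000 UMIs Mef2c was 122, 130 and 173 CPM in the control and CNO replicates 1 and 2, and among those of 12000 to 24000 UMIs it was 116, 119 and 170 CPM. The higher level of CNO replicate 2 was thus also present between nuclei of like depth. For VPA the levels in these bins were 161 and 148 CPM against 150 and 131 CPM in saline, and the shallow VPA and CNO replicate 2 nuclei of 1000 to 3000 UMIs had 227 and 271 CPM. Summed microglial markers in OT-like nuclei were 52.8, 53.2 and 89.8 CPM in the control and CNO replicates 1 and 2, with 5 of 10 markers detected in each. Tmem119, C1qc and Siglech were at 0 in all 3, C1qa and C1qb were detected in CNO replicate 2 alone, and Csf1r and Inpp5d were at 0 in that library alone. Their part in the Mef2c level was not tested.

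**Figure D5:**
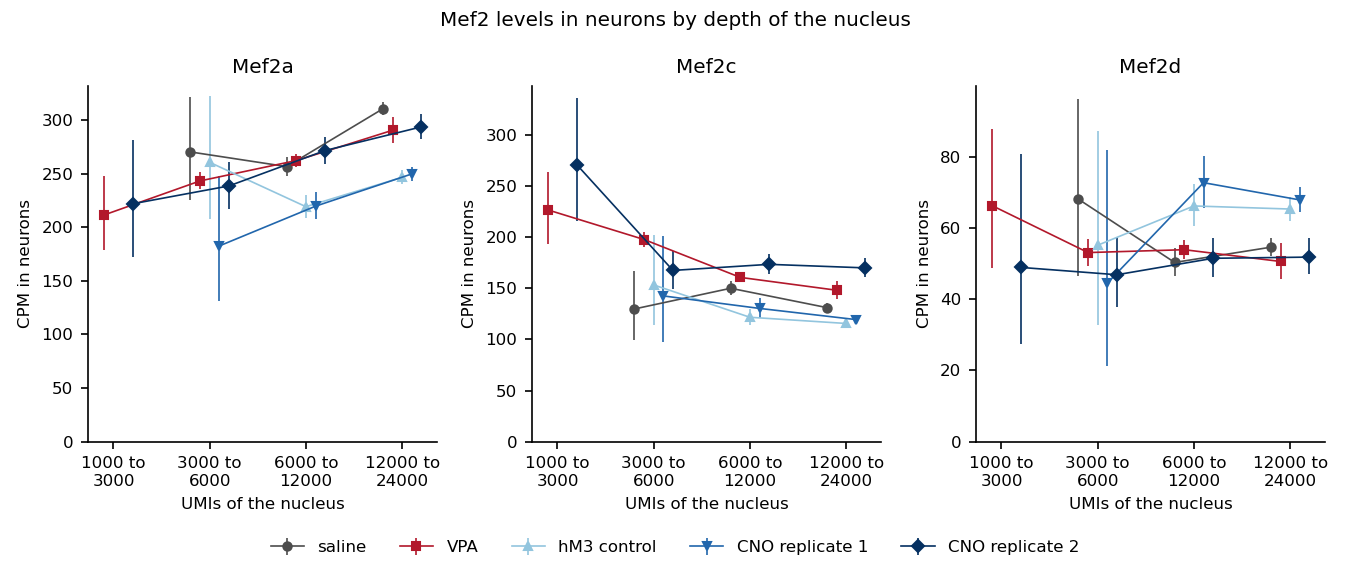
Level of each Mef2 gene (CPM) in neurons grouped by UMIs per nucleus, 1 line per library, with exact 95% Poisson intervals for counting error. In nuclei of 12000 to 24000 UMIs CNO replicate 2 has 170 CPM of Mef2c against 116 CPM in the hM3 control, and the VPA and saline libraries have 148 and 131 CPM.

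Mef2d was lower than in the control in CNO replicate 2, in OT-like nuclei and in neurons as a whole, while CNO replicate 1 was lower in OT-like nuclei, with an interval that spans 0, and slightly higher in neurons as a whole. OT-like nuclei had 63.9, 51.6 and 38.5 CPM in the control and CNO replicates 1 and 2, on 144, 33 and 36 UMIs (log2 ratios -0.31, -0.90 to 0.25, and -0.73, -1.30 to -0.20). Neurons had 62.7, 66 and 49.1 CPM (0.07 and -0.35), and CNO replicate 2 was below the control in 26 of 28 sub-clusters. Mef2a was 212, 252 and 230 CPM in OT-like nuclei (0.25, -0.02 to 0.51, and 0.12, -0.12 to 0.35), and in neurons 249, 257 and 280 CPM (0.04 and 0.17), where the mean ratio of 0.11 became -0.00 under a scaling by the median gene.

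Microglial Mef2a was lower in both CNO libraries, at 2183 CPM for the hM3 control (94 nuclei), 1458 CPM for CNO replicate 1 (23 nuclei) and 1775 CPM for CNO replicate 2 (31 nuclei). The log2 ratios were -0.58 (-0.83 to -0.34) and -0.30 (-0.59 to -0.02). Among microglia of 1000 to 3000 UMIs the control had 2305 CPM (52 nuclei, 264 UMIs) and CNO replicate 2 had 2196 CPM (25 nuclei, 91 UMIs), so little of the replicate 2 difference was present between nuclei of that depth. In nuclei of 3000 to 12000 UMIs the mean ratio of the CNO libraries was -0.79, against -0.43 in all microglia. That value rests on few nuclei, since 25 of the 31 microglia of CNO replicate 2 lay at 1000 to 3000 UMIs. CNO replicate 1, with 23 microglia, held fewer than 20 in each depth bin and gave no value for a single bin. Mef2c was 1545, 1540 and 1349 CPM (-0.00 and -0.19). Of the 3 members 0 were called, with 20.5% of genes called. Summed microglial markers moved the same way as Mef2a, with 8494, 6388 and 6953 CPM, and summed markers of other cells were higher in the CNO libraries, with 2533, 5250 and 3462 CPM for 7 neuron markers and 354, 1458 and 1408 CPM for 9 oligodendrocyte markers. Their part in the Mef2a ratio was not tested.

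In the CNO comparison a member was called in astrocytes. Mef2c was 34.6 CPM in the hM3 control and 61.2 and 69.7 CPM in CNO replicates 1 and 2 (0.82, 0.46 to 1.18, and 1.01, 0.72 to 1.30), on 165, 108 and 256 UMIs. There 5.46% of 7013 genes were called and 5% were called higher. Astrocytes fell in 2 clusters, in different shares by library. Cluster 2 held 729, 191 and 149 of them in the control and CNO replicates 1 and 2, and cluster 5 held 303, 185 and 1426. Mef2c was 33.0, 56.5 and 89.9 CPM in cluster 2 (log2 ratios 0.77 and 1.44) and 37.8, 65.5 and 67.0 CPM in cluster 5 (0.79 and 0.83), a split made after the values were seen, so both CNO libraries were above the control within each cluster. With all 5 libraries summed, cluster 5 had more of the interferon-induced gene Gm4951 (326 against 40.2 CPM) and of mt-Co1 (233 against 28.7 CPM). Within the control and CNO replicates 1 and 2, Gm4951 was 447, 279 and 302 CPM in cluster 5. In cluster 2 it was 94.7, 44.7 and 54.4 CPM in the same order. In saline and VPA it was at 0 in cluster 5. Summed oligodendrocyte markers in all astrocytes were 347, 930.1 and 718 CPM in the 3 libraries, and their part in the ratio was not tested. Oligodendrocyte Mef2c was 5.48, 14.1 and 25.9 CPM on 8, 45 and 27 UMIs (1.36, 0.26 to 2.66, and 2.24, 1.06 to 3.59), past the fold in both CNO libraries but under the level set for calling. Oligodendrocytes are the reference for free RNA used above, and the part of free RNA in the astrocyte ratio was not tested. In endothelial nuclei Mef2c was 311, 426 and 379 CPM (0.45 and 0.29), with 0 of 3 called and a background of 22.8%. In mural nuclei it was 295, 290 and 593 CPM on 20, 5 and 33 UMIs, with 0 of the 2 members tested called and a background of 27.2%.

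The partners and targets of MEF2 were taken from 6 lists of 39 genes chosen by role, with earlier results of these data known. Genes named below that passed no fold in OT-like nuclei were picked after their values were seen. Mef2b, the remaining family gene, was close to undetected in OT-like nuclei, with 1.74, 3.66, 0.444, 0 and 1.07 CPM, where 0 of 639307 UMIs in CNO replicate 1 allows up to 4.69 CPM (3 counts). Of the 4 class IIa histone deacetylases, the repressors of MEF2, 4 were tested in OT-like nuclei and 0 were called in either comparison. Hdac4 stood at 124, 108, 123, 147 and 117 CPM. Hdac9 was 1565 CPM in thalamus-like nuclei, 946 in OT-like nuclei and 831 in microglia, but 95.2 in oligodendrocytes. These and the class levels of pathway genes that follow are CPM with the libraries summed.

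The calcium-dependent regulators were calcineurin subunits and calcium/calmodulin-dependent kinases that act on MEF2 or its repressors, and Cabin1. All 12 of these regulators were tested in OT-like nuclei, with 0 called. Their median log2 ratio was 0.05 for VPA and -0.06 for CNO, against 0.01 and 0.03 over all genes tested. Some had a microglial maximum as Mef2a and Mef2c did. Camk1d stood at 1734 CPM in microglia and 298 in OT-like nuclei, and Camk1 at 138 and 38.2. Others did not, and Camk4, a neuronal kinase, was at 276 CPM in OT-like nuclei and 29.2 in microglia.

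Of the 5 genes listed as MAP kinases and protein kinase D, 4 were tested in OT-like nuclei and 0 were called. Mapk14, the p38 kinase that activates MEF2 proteins, stood at 414 CPM in microglia and 82.6 in OT-like nuclei.

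Among coactivators 1 of 5 was called lower with VPA in OT-like nuclei, Carm1, an arginine methyltransferase that assists MEF2C, at 34.1 CPM in saline and 22.0 in VPA (-0.64, -1.19 to -0.10), where 3.66% of all genes tested were called lower. Of the 12 genes listed as MEF2 targets in neurons, 6 were tested for VPA with 0 called and 5 for CNO with 1 called higher. That was Lgi1, a secreted synaptic protein, at 47.0 CPM in the hM3 control and 86.0 and 82.3 in the CNO libraries (0.87 and 0.81), where 3.73% of all genes tested were called higher. Lgi1 was higher in astrocytes (538 CPM) than in OT-like nuclei (64.6 CPM), and summed astrocyte markers in OT-like nuclei were 71.0, 42.2 and 97.3 CPM in those 3 libraries. Over all lists 31 genes were tested for VPA with 0 called higher and 1 lower, and 30 for CNO with 1 higher and 0 lower.

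In neurons as a whole 1 gene of the lists was called, Kcna1, a potassium channel and listed target, at 16.4, 29.5 and 29.5 CPM in the hM3 control and CNO replicates 1 and 2, where 1.79% of all genes tested were called higher. Its highest class was oligodendrocytes, at 443 CPM. The immediate early targets Arc, Egr1 and Fos were at 4.68 CPM or less in every neuron type with the libraries summed. That is under the level set for calling, and their ratios were not examined.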

How the data were processed

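Counts of UMIs per gene and nucleus were deposited as 1 filtered 10x matrix per library. Per the submitters' processing notes, Cell Ranger 7.0.1 and the mm10 build were used. The strand setting is not given in the sources used here. Per the labels' protocols, DAPI-stained nuclei were sorted with a gate for larger nuclei, so shares of classes reflect that gate.

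Nuclei under 1000 UMIs or over 5% mitochondrial UMIs were left out, as was the top 0.8% by Scrublet score per 1000 nuclei of a library (doublets). The remainder were clustered with scanpy 1.11.5 on 2000 variable genes without Mef2a to Mef2d, Oxt and Avp (30 components, 20 neighbours, Leiden resolution 1), and the neurons again at resolution 2. This gave 36 clusters and 58 neuron sub-clusters. Classes were named from 18 marker lists, and 1748 nuclei of clusters that mixed markers of several classes entered no class (2.21%, 0.804%, 6.73%, 7.91% and 16.5% of nuclei in saline, VPA, the hM3 control and CNO replicates 1 and 2, with 894 of the 1748 in CNO replicate 2). A neuron sub-cluster of low depth led by Gabra6 also entered no class. It held 121 nuclei in VPA, 1 in saline and 0 in the hM3 control and CNO libraries. The VPA library thus held a group of nuclei nearly absent from the others, and its origin was not tested. Names were rebuilt here and may differ from the study's.

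UMIs were summed per library and class. Each group but the CNO group holds 1 library, cells are not replicates, and 2 CNO libraries against 1 control could give no permutation p under 0.333, so no test was run. Levels have exact Poisson and log2 ratios exact conditional binomial 95% intervals, which cover counting error only. A single CNO value compares the mean level of the 2 libraries with the control. The calls and intervals were tested on simulated data for the VPA comparison. With a log2 change of 1 set for 200 genes, 99.5% of them were recovered in OT-like nuclei and 100% in neurons. The 95% intervals covered the set change in 95.5% and 91.5%, and 1.99% and 0% of unchanged genes were called.

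Members and lists were chosen with earlier results of these data known. By rule the text names the 3 members with values in all libraries, pathway genes that passed the fold in OT-like nuclei (others were picked after their values were seen), and up to 5 genes most like each member by log2(CPM + 1) over classes of at least 50 nuclei. Alternatives covered scaling, pseudocount, filters, doublets, cluster resolution, depth, sub-cluster weights and each CNO library left out. Start windows came from RefSeq (GRCm38.p6) and matched all 3 members, and gene positions came from GENCODE M21. Protein sequences were not used here.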

Additional observations from a re-analysis of the deposited data

Results flagged for a closer look

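For each Mef2 gene, the point values of both CNO libraries lay on one side of the hM3 control in some cell classes and on the other side in another class. The difference between classes was not tested, and with 1 control library shared by all of these ratios its deviation enters each of them. The values are mean log2 ratios of the 2 CNO libraries against the hM3 control. Mef2a was 0.19 in OT-like nuclei, 0.10 in the other neurons and 0.16 in vascular nuclei (endothelial, mural and fibroblast), but -0.43 in microglia. Mef2c was 0.99 in OT-like nuclei, 0.37 in the other neurons and 0.40 in vascular nuclei, and -0.10 in microglia, where CNO replicate 1 was level with the control (1540 and 1545 CPM) and only replicate 2 was lower (-0.19, -0.53 to 0.13). Mef2d was -0.50 in OT-like and 0.59 in vascular nuclei, the latter from 77.7 CPM in the control and 152 and 81.1 CPM in CNO replicates 1 and 2, on 27, 11 and 61 UMIs. The vascular ratio was 0.97 (-0.19 to 2.03) for replicate 1, on 20 nuclei, and 0.06 (-0.61 to 0.77) for replicate 2.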

How the results depend on the processing

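Of 180 alternative values, 138 stayed within the counting interval, the spread between libraries or 1.5 times the main value, 42 moved and 0 called values changed sign. Settings on depth, on sub-clusters at resolution 3 and without the sub-cluster highest in Mef2c were chosen after seeing the data. The cause of the moves was not tested.

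Mef2c in neurons for VPA (0.35) was 0.26 with median-ratio scaling, 0.22 in nuclei of 3000 to 12000 UMIs and 0.28 with equal weight for each sub-cluster. For CNO (0.39) it was 0.28, 0.30 and 0.49 under the same settings and 0.44 with doublets kept, and leaving out a CNO library gave 0.15 to 0.60. The median-ratio scaling moved all genes by -0.11 for CNO in neurons, and uncalled ratios of Mef2a for CNO (0.11 to -0.00) and Mef2d for VPA (0.01 to -0.08) changed sign with it. Mef2c in OT-like nuclei for VPA (0.28) was 0.92 in nuclei rich in Oxt UMIs, on 47 Mef2c UMIs in saline and 43 in VPA. For CNO (0.99) leaving out a CNO library gave 0.29 to 1.46. In OT-like nuclei of 3000 to 12000 UMIs it was 3.52, where the control held 2 Mef2c UMIs and the CNO libraries 67, with a pooled ratio of 3.01 (1.10 to 6.08).

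Microglia over neurons (log2) was 1.66 for Mef2a and 2.22 for Mef2c at cluster resolution 0.5, and 1.84 and 2.74 on thinned shares, against 3.03 and 3.61. Without the filter on low genes, 5793 genes passed the fold for VPA and 2084 for CNO in OT-like nuclei (537 and 329 with it), 5705 and 3000 in neurons (194 and 128, and 79 for CNO with median-ratio scaling) and 5211 and 2448 in microglia (1176 and 1016). Microglial Mef2a for VPA was -1.60 in nuclei of at least 2000 UMIs, which left 3 Mef2a UMIs in VPA. For CNO (-0.43) microglial Mef2a was -0.79 in nuclei of 3000 to 12000 UMIs, on few CNO nuclei. Mef2d in OT-like nuclei for CNO (-0.50) was -1.32 in nuclei rich in Oxt UMIs (13 UMIs against 33), and for VPA (0.19) 0.54 in nuclei of 3000 to 12000 UMIs, on 11 UMIs in saline.

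No paired analysis was possible because the saline, VPA and hM3 control groups hold 1 library each and share no pair of replicate numbers. Mixed clusters were added back for neurons only. Mef2d in microglia had no value under settings that left a library with 0 UMIs. Depth limits Mef2d in microglia and vascular nuclei and CNO replicate 1 in OT-like nuclei. Genes under a mean of 20 CPM were left out of the calls by the filter.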
